A study of Xenopus laevis and Xenopus tropicalis with 12 samples.

Results

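The genes described here encode ubiquitin ligases and ligase subunits of the RNF, TRIM and F-box families in Xenopus oocytes. They were taken by symbol: every gene model whose symbol begins with rnf, trim, fbxo, fbxl or fbxw followed by a number, without trim36 and fbxo43. This gave 154 of the 28165 gene models that were counted, namely 72 rnf, 29 trim, 31 fbxo, 16 fbxl and 6 fbxw genes. Membership rests on the name and not on the counts, apart from the exclusion of trim36 and fbxo43. The members were chosen with earlier results of these data known.

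Ubiquitin is attached to proteins by a cascade of an activating enzyme (E1), a conjugating enzyme (E2) and a ligase (E3), and the ligase chooses the substrate. RNF and most TRIM proteins carry a RING domain that binds the charged E2 directly, and TRIM proteins add B-box and coiled-coil domains. F-box proteins are the exchangeable substrate receptors of the SKP1-cullin-F-box (SCF) complexes, with WD repeats in the fbxw group, leucine-rich repeats in the fbxl group and other domains in the fbxo group. The full-grown oocyte stores these mRNAs for meiosis and early cleavage, when the embryo transcribes little, and an mRNA kept at one pole can be inherited by a subset of the blastomeres.

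RNA was sequenced from manually dissected animal and vegetal oocyte hemispheres of 2 frog species with no treatment given in the labels. In Xenopus laevis, 8 libraries came from stage VI oocytes of females A and B, with an animal and a vegetal library from each of the batches A_t1, A_t2, B_t1 and B_t2. In Xenopus tropicalis, 4 libraries came from oocytes labelled full grown, with an animal and a vegetal library from each of females 1 and 2. The labels do not state strain, age or the number of oocytes per library, and the 2 batches of an X. laevis female are not separate animals. Library totals were 30416352 to 45235154 counts in X. laevis and 7772801 to 28392285 in X. tropicalis. Where a library had 0 counts of a gene, the upper limit was set at 3 counts, covering counting error only. By unscaled library totals this was at most 0.0986 CPM (counts-per-million) for X. laevis libraries and 0.386 CPM for those of X. tropicalis. Levels below are in CPM with TMM-scaled library sizes. CPM is not corrected for transcript length, so levels were compared between libraries and not between genes. Values are listed in the order A_t1, A_t2, B_t1, B_t2 for X. laevis and female 1, female 2 for X. tropicalis.

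The hemisphere labels were checked with 8 mRNAs known to be vegetal, among them grip2, nanos1, vegt and dnd1. All 8 were at least 2-fold higher in vegetal libraries of both species. The summed level of 9 oocyte mRNAs, such as zp2, gdf9 and dazl, was 1592 to 1827 CPM in animal libraries and 2324 to 2709 CPM in vegetal ones of X. laevis. In X. tropicalis the same sum was 1289.6 to 1387 CPM in animal libraries and 2623 to 2744 CPM in vegetal libraries. The list includes dazl, a germ plasm mRNA. Its log2 differences, vegetal over animal, ran from -0.37 to 5.09 in X. laevis (median 0.45). They ran from -0.01 to 3.70 in X. tropicalis (median 0.30), so the sums do not stand for each of the 9 mRNAs. In X. laevis 10 genes listed as follicle cell markers summed to 81.5 to 155 CPM in animal libraries and 296 to 368 CPM in vegetal libraries. The rise was that of cyp17a1 alone (78.7 to 151 against 293 to 364 CPM). The other 9 markers summed to 2.61 to 4.42 CPM in animal libraries and 1.78 to 4.03 CPM in vegetal libraries, which overlapped. Whether cyp17a1 came from follicle cells or from the oocyte was not tested, so its rise is no sign of follicle cells in vegetal libraries. In X. tropicalis the follicle list summed to 0.744 to 2.12 and 0.899 to 1.18 CPM, with cyp17a1 and 4 other markers at 0. Immune markers summed to 4.11 to 6.92 CPM over all libraries of both species, with overlapping hemispheres. Blood and endothelium markers were at 12 to 49.3 CPM, also overlapping. Single markers within these sums passed the test. In X. laevis kdr (-1.57 ± 0.26, log2) and csf1r (-0.86 ± 0.23) were animal and slc4a1 (0.49 ± 0.11) vegetal, and in X. tropicalis cd74 (-1.22 ± 0.48) was animal. Of the 7 connective tissue markers only fn1 was higher in vegetal libraries, in both species, at 73.3 ± 24.5 against 124 ± 43.4 CPM in X. laevis (SD, n = 4) and 60.6 ± 0.238 against 74.4 ± 4.43 CPM in X. tropicalis (SD, n = 2). For such markers, fewer cells of a type and less RNA per cell cannot be told apart. The part of these markers in the ligase results was not tested.

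Together the 154 ligase genes took just under 1 in 100 of the counts. In X. laevis their share was 0.860, 0.902, 0.895 and 0.913% of the animal counts and 0.916, 0.950, 0.937 and 0.948% of the vegetal counts. In X. tropicalis it was 0.726 and 0.741% of the animal and 0.738 and 0.773% of the vegetal counts. The vegetal share was the higher one in 4 of 4 X. laevis pairs and 2 of 2 X. tropicalis pairs, where 4 pairs allow no exact two-sided p below 0.125. Whether more copies of these mRNAs or fewer copies of others raise such a share cannot be told apart. The rnf genes supplied 63.6% of the family's counts in X. laevis and 60.4% in X. tropicalis.

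Of the 154 genes, 134 had enough counts to be tested in X. laevis, 126 in X. tropicalis, 119 in both and 13 in neither. The 20 untested X. laevis genes had a mean of at most 0.170 CPM, and 1 of them, fbxo47, had no count. Among the 28 untested X. tropicalis genes the highest mean was 0.540 CPM, and 8 had no count in any library. The 13 genes tested in neither species included trim63, trim55 and trim72, which are known from striated muscle in mammals, and trim29, trim50 and rnf222. A group of 5 ligases known from muscle was chosen after values were seen, without trim32, which was tested in both species. Of the 5, 1 was tested in X. laevis and 2 in X. tropicalis. Among these fbxo32, also known as atrogin-1, stood at 8.58 ± 0.704 CPM in animal libraries and 7.37 ± 2.16 CPM in vegetal libraries of X. laevis (SD, n = 4) and at 36.3 ± 9.57 CPM in animal libraries and 40.4 ± 1.93 CPM in vegetal libraries of X. tropicalis (SD, n = 2), and did not pass the test in either species.

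Most ligase mRNAs were spread over both hemispheres, and a minority was shifted to one side. In X. laevis 36 of 134 tested genes (26.9%) passed the test between hemispheres at an adjusted p under 0.05 (edgeR quasi-likelihood test with the batch as a block, Benjamini-Hochberg over all models), against a background of 27.7% of all tested models. Of these 36, 19 were higher in the vegetal hemisphere (background 13.2%) and 17 in the animal hemisphere (background 14.4%). In X. tropicalis 41 of 126 (32.5%) passed, against a background of 33.0%, with 20 higher in the vegetal (background 15.6%) and 21 in the animal hemisphere (background 17.3%). These shares lay near the background, so the family as a whole was shifted about as often as other mRNAs.

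A difference of at least 2-fold was rare. In X. laevis 8 genes passed with at least 2-fold (background 6.59%), 4 of them vegetal (background 3.01%) and 4 animal (background 3.58%). In X. tropicalis 12 passed with at least 2-fold (background 6.92%), 8 vegetal (background 3.29%) and 4 animal (background 3.63%). The hemispheres of 105 X. laevis genes (78.4%) and 100 X. tropicalis genes (79.4%) were within 0.5 on the log2 scale, as for 76.4% and 79.9% of all models. The median log2 difference of the family, vegetal over animal, was -0.02 (X. laevis) and -0.01 (X. tropicalis). All 36 X. laevis calls had one direction in 4 of 4 pairs, and all 41 X. tropicalis calls in 2 of 2 pairs. Calls were chosen by a paired test on these same pairs, which favours 1 direction, so this is no separate support. The levels of the hemispheres did not overlap for 25 of the 36 and 31 of the 41, and over all tested members for 27 (20.1%, background 21.3%) and 47 (37.3%, background 35.7%).

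**Figure D1:**
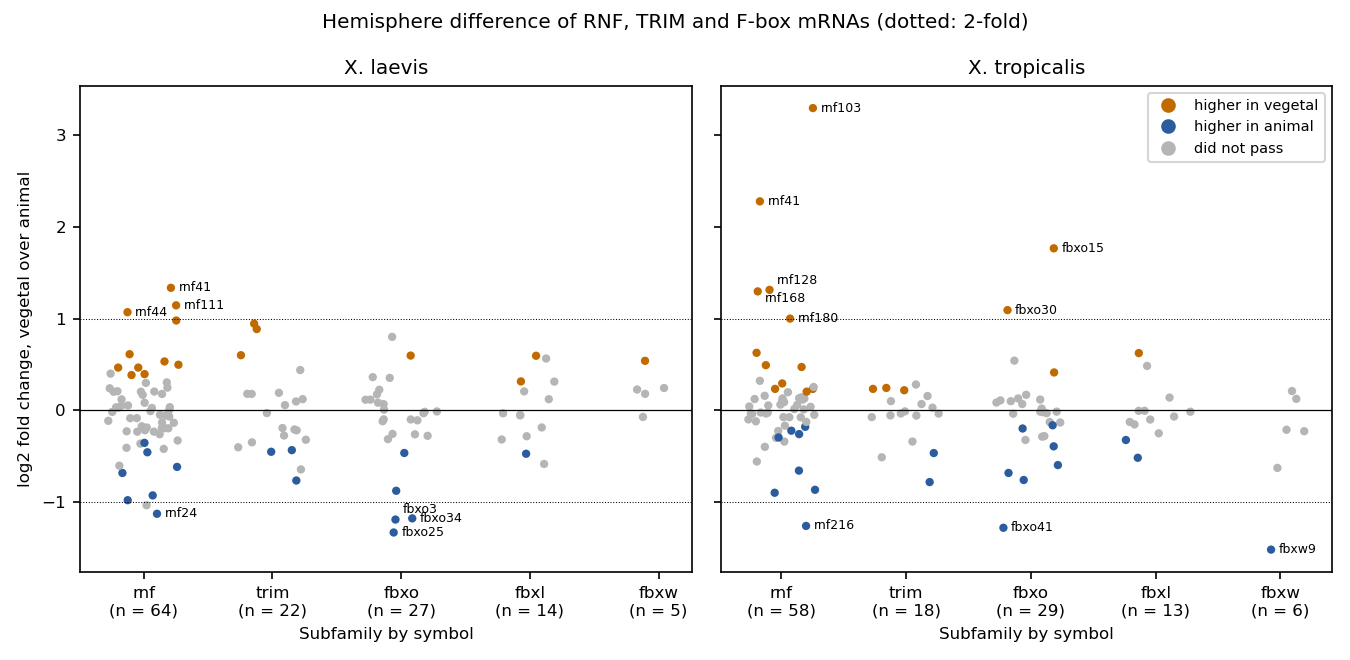
Log2 fold change between hemispheres (y axis, vegetal over animal) of 132 (X. laevis) and 124 (X. tropicalis) tested RNF, TRIM and F-box mRNAs, grouped by subfamily (x axis); each point is 1 gene, coloured by the edgeR call, points are spread sideways at random, and dotted lines mark 2-fold. Most points lie between the dotted lines, rnf41 stands high in both panels (1.34 and 2.28), and X. tropicalis rnf103 is the highest point at 3.29.

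The calls are given by subfamily as counts, with no test between subfamilies. In X. laevis 12 rnf genes were vegetal and 7 animal of 65 tested, against 3 and 3 of 22 trim genes and 4 and 7 of 47 F-box genes, beside backgrounds of 13.2% vegetal and 14.4% animal. In X. tropicalis 13 rnf genes were vegetal and 8 animal of 59, against 3 and 2 of 18 trim genes and 4 and 11 of 49 F-box genes, beside backgrounds of 15.6 and 17.3%.

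The X. tropicalis calls rest on 2 pairs and on the spread pooled over genes. Without the block of the female, 6 vegetal and 1 animal call were left there, and with DESeq2 12 and 8. Scaling by library totals gave 16 vegetal and 26 animal calls in place of 20 and 21. Leaving out 1 of the 4 libraries, which also ends the pairing, ended 32 of the 34 calls of X. tropicalis members named by the rule, and rnf41 and rnf103 were the 2 that passed each time. In X. laevis, leaving out 1 batch with both its libraries ended 11 of 30 such calls, all 11 among those lost without A_t2, where 11 vegetal and 10 animal calls were left in all. Summing the batches of each female gave 33 vegetal and 27 animal calls. That fit has only 2 pairs, as in X. tropicalis, so its higher counts are no stronger support.

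An mRNA that was vegetal in both species was rnf41 (model Xetrov72030734), which encodes Nrdp1, a ligase that limits the level of the ErbB3 receptor. X. laevis animal libraries had 168, 172, 156 and 146 CPM and vegetal libraries 409, 487, 358 and 375 CPM. In X. tropicalis the levels were 27.9 and 30.3 CPM and 118 and 161 CPM. Vegetal levels were thus above animal levels in each library of both species, and the ratio between them was larger in X. tropicalis. The log2 difference was 1.34 ± 0.08 (SE, adjusted p = 2.49e-05, edgeR) in X. laevis and 2.28 ± 0.08 (adjusted p = 2e-64) in X. tropicalis, and the 2 species differed by 0.92 ± 0.14 (interaction, adjusted p = 0.00369).

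Another was rnf103 (model Xetrov72019817), which encodes a multi-span ligase of the endoplasmic reticulum (ER) membrane. In X. laevis it had 80.9, 89.7, 71.5 and 73.2 CPM in animal libraries and 153, 174, 127 and 169 CPM in vegetal libraries. X. tropicalis animal hemispheres held 18.6 and 19.6 CPM and vegetal hemispheres 197 and 183 CPM. The hemispheres did not overlap in either species. Levels were scaled within each species, so they were not compared between the species. The log2 difference of 0.98 ± 0.09 in X. laevis (adjusted p = 0.000168) lay just under 2-fold, and that of 3.29 ± 0.08 in X. tropicalis (adjusted p = 1.76e-86) was the largest of the family in either species. This made rnf103 the member with the largest species difference, 2.33 ± 0.15 on the log2 scale (adjusted p = 7.92e-05).

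Another RING gene, rnf44 (model Xetrov72038913), was vegetal in X. laevis. Its X. laevis level was 35.2, 39.0, 44.3 and 46.0 CPM in animal libraries and 77.8, 94.7, 73.0 and 101 CPM in vegetal libraries, with no overlap and a log2 difference of 1.07 ± 0.11 (adjusted p = 0.000305). In X. tropicalis rnf44 had 1.98 and 3.03 CPM in animal libraries and 3.54 and 3.22 CPM in vegetal libraries, a log2 difference of 0.32 ± 0.26 that did not pass (adjusted p = 0.381). The difference between the species was -0.73 ± 0.28 (interaction, adjusted p = 0.129).

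**Figure D2:**
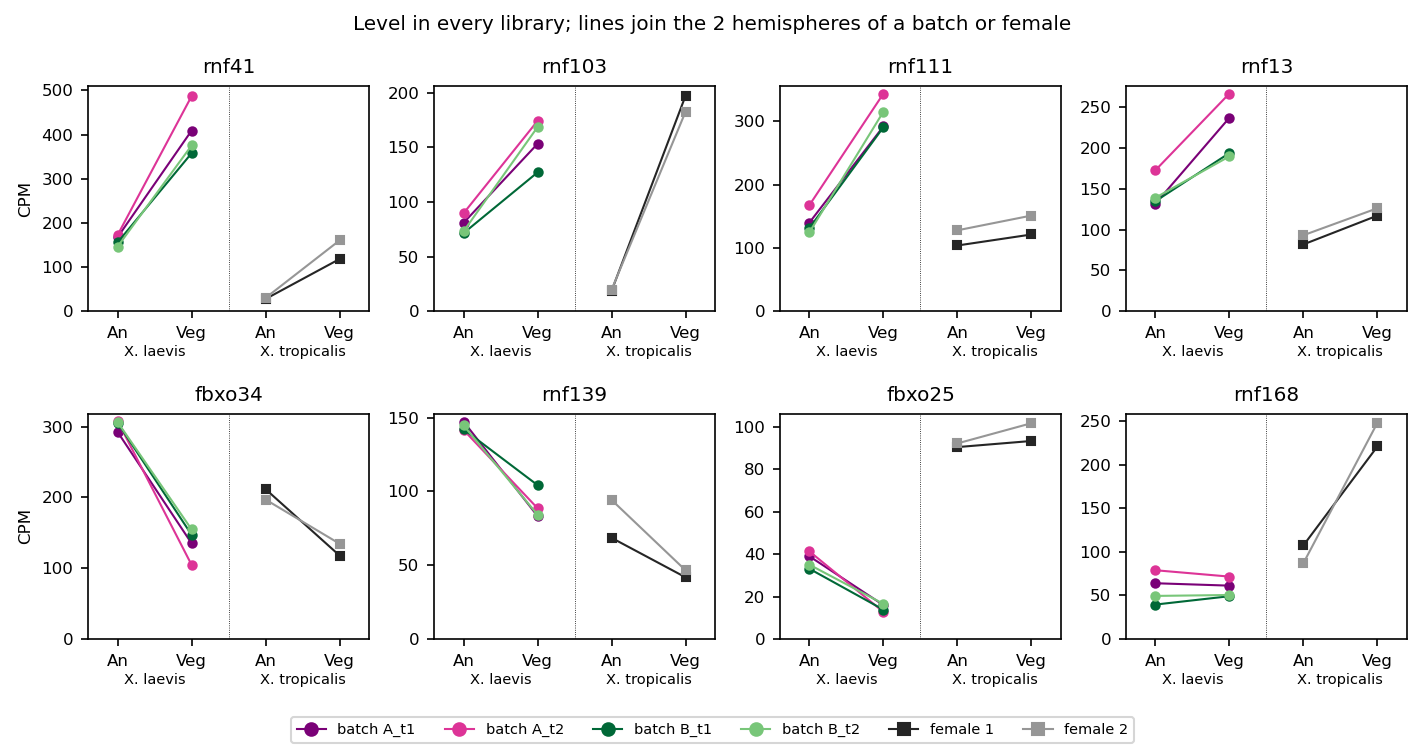
Level of 8 ligase mRNAs in every library (y axis, CPM from 0, each panel with its own scale) for the animal (An) and vegetal (Veg) hemispheres of X. laevis (circles) and X. tropicalis (squares); a line joins the hemispheres of 1 batch or female. Lines of rnf41, rnf103 and rnf13 rise to the vegetal side in both species and those of fbxo34 and rnf139 fall, while rnf111 rises steeply in X. laevis and fbxo25 and rnf168 change steeply in 1 species.

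Ligases of membrane traffic and organelles were followed as a set of 14 genes. In X. laevis 3 were vegetal and 2 animal of 13 tested (backgrounds 13.2 and 14.4%), and in X. tropicalis 6 and 1 of 13 (backgrounds 15.6 and 17.3%). Besides rnf41 and rnf103, rnf13, a ligase of endosomes and lysosomes, was vegetal in both species. Its X. laevis levels were 132, 173, 135 and 139 CPM in animal libraries and 237, 267, 194 and 189.8 CPM in vegetal libraries, without overlap, and the log2 difference was 0.61 ± 0.09 (adjusted p = 0.00193). In X. tropicalis rnf13 stood at 81.9 and 93.1 and 117 and 126 CPM, a log2 difference of 0.47 ± 0.07 (adjusted p = 9.96e-10). The opposite direction was seen for rnf139, which encodes TRC8, an ER ligase linked to sterol metabolism. Animal libraries of X. laevis had 147, 142, 142 and 145 CPM and vegetal ones 83.3, 88.6, 104 and 84.2 CPM, and those of X. tropicalis 68.5 and 94.2 and 41.8 and 46.5 CPM. The animal hemisphere was higher without overlap in both species, with log2 differences of -0.68 ± 0.09 (adjusted p = 0.00114) and -0.90 ± 0.08 (adjusted p = 1.64e-20).

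A subgroup picked out after values were seen was that of transmembrane RING ligases with a protease-associated domain (rnf13, rnf128, rnf130, rnf149, rnf150 and rnf167). Of these 6, 1 was vegetal and 1 animal in X. laevis and 3 were vegetal and 1 animal in X. tropicalis, beside 27.7 and 33.0% of all tested models called. The T-cell anergy ligase rnf128, also known as GRAIL, had 27.6 and 28.5 CPM in animal libraries and 68.0 and 71.3 CPM in vegetal ones of X. tropicalis, a log2 difference of 1.31 ± 0.09 (adjusted p = 2.31e-31). In X. laevis its hemispheres overlapped at 14, 17.4, 23.2 and 21.3 and 15.2, 15.6, 15.5 and 19.1 CPM, with a log2 difference of -0.19 ± 0.13 (adjusted p = 0.273). The lysosomal ligase rnf167 was vegetal in X. tropicalis, with 0.49 ± 0.08 there (adjusted p = 9.83e-08) and -0.22 ± 0.11 in X. laevis (adjusted p = 0.192). By contrast rnf149 was animal in both species, at -0.62 ± 0.09 (adjusted p = 0.00193) and -0.87 ± 0.25 (adjusted p = 0.00275).

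The other organelle ligases were shifted less or not called. The ER ligase rnf26 was vegetal in X. tropicalis at 0.29 ± 0.07 on the log2 scale (adjusted p = 7.91e-05) and gave 0.12 ± 0.09 in X. laevis (adjusted p = 0.339). The mitochondrial F-box protein fbxl4 was animal in X. laevis at -0.47 ± 0.14 (adjusted p = 0.0435), a call lost without A_t2, B_t1 or B_t2 (adjusted p = 0.0846 to 0.137), with a value of -0.29 without B_t1, and gave 0.14 ± 0.15 in X. tropicalis. The ER quality control ligases rnf5 and rnf185, the RBR ligase rnf19a and the mitophagy factor fbxo7 passed in neither species, with log2 differences between -0.11 ± 0.07 (rnf5) and 0.30 ± 0.13 (rnf185) in X. laevis and between -0.04 ± 0.06 (rnf5) and 0.04 ± 0.06 (rnf19a) in X. tropicalis. The glycan-binding F-box genes fbxo6 and fbxo2 had few counts in X. laevis, where reads were counted on X. tropicalis models. fbxo6 had 0.0232 to 0.791 CPM in X. laevis and no count in X. tropicalis, and fbxo2 had a count in 1 X. laevis library only, while X. tropicalis female 1 had 4.96 and 4.06 CPM of fbxo2 in its animal and vegetal libraries.

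Ligases of Nodal, BMP and Wnt signalling formed a set of 11 genes. In X. laevis 4 of 10 tested were higher in vegetal libraries and 0 in animal libraries by edgeR, with 0 animal at an unadjusted p under 0.05 and 0 by DESeq2 (backgrounds 13.2% vegetal and 14.4% animal). In X. tropicalis 2 were vegetal and 1 animal of 9 (backgrounds 15.6 and 17.3%). The set was led by rnf111 (model Xetrov72004581), which encodes Arkadia, a ligase that degrades the Smad antagonists Ski, SnoN and Smad7 and so raises Nodal and TGF-beta signalling. Its level was 140.1, 168, 131 and 125 CPM in animal libraries and 292, 344, 291 and 315 CPM in vegetal ones of X. laevis. In X. tropicalis it was 104 and 128 CPM and 121 and 151 CPM. The X. laevis hemispheres were well apart, and those of X. tropicalis overlapped, with the vegetal library higher in both pairs. The log2 difference was 1.14 ± 0.08 (adjusted p = 5.42e-05) and 0.23 ± 0.07 (adjusted p = 0.00237), and the species differed by -0.91 ± 0.13 (adjusted p = 0.00256).

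The small RING protein rnf11, a partner of Smurf and A20 complexes, was vegetal in both species. It had 76.0, 95.5, 70.2 and 79.4 CPM in animal libraries and 113, 130.1, 100.2 and 100.2 CPM in vegetal X. laevis libraries, a log2 difference of 0.47 ± 0.08 (adjusted p = 0.0043). Values in X. tropicalis were 27.0 and 18.4 and 38.9 and 30.0 CPM, a log2 difference of 0.63 ± 0.10 (adjusted p = 8.92e-08). In neither species did the hemispheres overlap. The axin-degrading ligase rnf146 was vegetal in X. laevis at 0.50 ± 0.10 (adjusted p = 0.00923, and 0.0643 without A_t2) and gave 0.06 ± 0.07 in X. tropicalis (adjusted p = 0.55). fbxl15, an SCF receptor for Smurf1 in human cells, was vegetal in X. laevis at 0.32 ± 0.09 (adjusted p = 0.0397), and this call was lost with any 1 batch left out (adjusted p = 0.0553 to 0.147).

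Other signalling genes of the set showed no large shift. trim33, also known as Ectodermin, a ligase that restrains Smad4 and was described in Xenopus as an animal pole factor, had 42.2, 55.6, 54.2 and 59.3 CPM in animal libraries and 47.5, 51.0, 51.5 and 55.7 CPM in vegetal ones of X. laevis. The hemispheres overlapped, and the log2 difference was -0.03 ± 0.09 (adjusted p = 0.826) in X. laevis and 0.10 ± 0.09 (adjusted p = 0.448) in X. tropicalis. fbxl14, a receptor for Snail family proteins in Xenopus, gave -0.03 ± 0.12 and -0.15 ± 0.07, and the Frizzled-removing ligase rnf43 gave -0.17 ± 0.10 and 0.12 ± 0.12, none of which passed. rnf220.1, a ligase of the Wnt and Shh pathways in mouse, was animal in X. tropicalis at -0.18 ± 0.06 (adjusted p = 0.0205) and gave 0.03 ± 0.08 in X. laevis. Reads of rnf220.1 and rnf220.2 may be shared between these copies, and rnf220.2 was too low to test. The Arkadia relative rnf165 was low, at 0.830, 0.946, 0.444 and 0.459 CPM in animal libraries and 0.767, 0.672, 0.112 and 0.297 CPM in vegetal ones of X. laevis, and did not pass (-0.60 ± 0.30, adjusted p = 0.169).

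Ligases of chromatin and DNA damage formed a set of 13 genes, all tested in both species. In X. laevis 2 were vegetal and 1 animal (backgrounds 13.2 and 14.4%), and in X. tropicalis 3 were vegetal and 3 animal (backgrounds 15.6 and 17.3%). The paralogs rnf168 and rnf169, which bind ubiquitinated histone H2A at DNA breaks, were each shifted in 1 species. rnf168 (model Xetrov72005043) had 107 and 86.9 CPM in animal libraries and 221 and 248 CPM in vegetal ones of X. tropicalis, a log2 difference of 1.30 ± 0.07 (adjusted p = 4.34e-42). In X. laevis its levels overlapped at 63.9, 78.8, 39.5 and 49.4 CPM and 61.2, 71.5, 49.0 and 50.4 CPM, a log2 difference of 0.03 ± 0.10 (adjusted p = 0.821). The test of the species difference gave 1.25 ± 0.18 (adjusted p = 0.00256).

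rnf169 (model Xetrov72041198) had 44.8, 48.5, 46.7 and 47.9 CPM in animal libraries and 22.6, 23.8, 26.9 and 25.7 CPM in vegetal ones of X. laevis. Every animal library was above every vegetal one, and the log2 difference was -0.93 ± 0.09 (adjusted p = 0.000231). In X. tropicalis the values were 39.7 and 49.1 and 38.2 and 47.6 CPM, which overlapped, with a log2 difference of -0.05 ± 0.09 (adjusted p = 0.727). The upstream ligase of the same response, rnf8, was vegetal in X. tropicalis at 0.20 ± 0.07 (adjusted p = 0.00944) and gave -0.26 ± 0.10 in X. laevis (adjusted p = 0.0851).

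fbxl19, whose CXXC domain binds unmethylated CpG DNA, was called in opposite directions in the 2 species. In X. laevis it had 122, 115, 113 and 105 CPM in animal libraries and 165, 201, 164 and 159.6 CPM in vegetal libraries, with no overlap. In X. tropicalis the values were 60.5 and 23.7 CPM in animal libraries and 42.3 and 21.4 CPM in vegetal libraries, where the 2 females lay further apart than the hemispheres. The log2 difference was 0.60 ± 0.09 (adjusted p = 0.00193) and -0.32 ± 0.10 (adjusted p = 0.00501), and the species differed by -0.92 ± 0.16 (adjusted p = 0.00655). The X. tropicalis direction turned to 0.42 without the animal library of female 1 and to 0.01 without the vegetal library of female 2, both in fits without pairing.

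In the same set, the Polycomb ligase rnf2, also known as Ring1B, was animal in X. tropicalis at -0.30 ± 0.11 (adjusted p = 0.0257) and gave -0.23 ± 0.08 in X. laevis (adjusted p = 0.0692). The X. tropicalis value of rnf2 was 0.24 and 0.02 without the same 2 libraries. The helicase receptor fbxo18 was animal in X. tropicalis at -0.60 ± 0.08 (adjusted p = 7.14e-12) and gave -0.31 ± 0.13 in X. laevis (adjusted p = 0.102). The histone H2B ligases rnf20 and rnf40, the SUMO-targeted ligase rnf4, the DNA end resection ligase rnf138, and the KRAB and nuclear receptor corepressors trim28 and trim24 passed in neither species. Their log2 differences lay between -0.21 ± 0.12 (trim24) and 0.18 ± 0.08 (trim28) in X. laevis and between -0.12 ± 0.06 (rnf138) and 0.14 ± 0.08 (rnf40) in X. tropicalis.

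From the cell cycle and meiosis set 8 genes are described. In X. laevis 7 of them were tested, with 0 calls by edgeR and by DESeq2, where edgeR gave 1 animal and 0 vegetal genes at an unadjusted p under 0.05. In X. tropicalis 8 were tested, with 2 vegetal and 0 animal calls by edgeR (0 animal at an unadjusted p under 0.05, and 0 by DESeq2). The backgrounds were 27.7 and 33.0% in either direction. The vegetal pair of X. tropicalis was fbxo30, which acts in chromosome condensation in mouse oocytes, and trim37, a ligase that limits centriole assembly. fbxo30 (model Xetrov72000526) had 113 and 74.0 CPM in animal libraries and 235 and 162 CPM in vegetal ones of X. tropicalis, a log2 difference of 1.09 ± 0.06 (adjusted p = 6.85e-36). In X. laevis its values were 206, 189.8, 277 and 232 and 346, 262, 201 and 371 CPM, which overlapped, with a log2 difference of 0.36 ± 0.19 (adjusted p = 0.186). For trim37 the X. tropicalis difference was 0.24 ± 0.07 (adjusted p = 0.00168), and it was -0.03 without the animal library of female 1 and -0.03 without the vegetal library of female 2.

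fbxo5, also known as Emi1, an inhibitor of the anaphase-promoting complex, gave -0.01 ± 0.13 in X. laevis (adjusted p = 0.955) and 0.17 ± 0.08 in X. tropicalis (adjusted p = 0.101). The cyclin E receptor fbxw7 gave 0.18 ± 0.09 and -0.23 ± 0.17, and fbxo31, fbxo38 and fbxo46 passed in neither species. The gene fbxl7 had too few counts to be tested in X. laevis. Its X. tropicalis animal libraries had 1.65 and 1.43 CPM and vegetal ones 2.75 and 1.80 CPM, which did not pass.

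Among ligases of RNA and RNP biology, 1 was vegetal and 1 animal of 8 tested in X. laevis and 0 of 7 passed in X. tropicalis, against 27.7 and 33.0% of all tested models. The count for X. tropicalis was 0 by edgeR and by DESeq2, with 2 animal genes at an unadjusted p under 0.05 in edgeR. trim71, also known as lin-41, a repressor of target mRNAs, had 13.0, 13.1, 16 and 14.4 CPM in animal libraries and 7.47, 8.27, 8.71 and 8.75 CPM in vegetal ones of X. laevis, without overlap. This gave -0.76 ± 0.10 (adjusted p = 0.0011), against -0.34 ± 0.15 (adjusted p = 0.0659) in X. tropicalis. rnf25, which acts at stalled ribosomes, was vegetal in X. laevis at 0.53 ± 0.14 (adjusted p = 0.0242, and 0.0954 without A_t2). rnf10, which ubiquitinates small ribosomal subunits, was even, at 457, 391, 379 and 352 CPM in animal libraries and 488, 434, 359.9 and 394 CPM in vegetal ones of X. laevis. Its log2 difference was 0.08 ± 0.08 there and 0.10 ± 0.06 in X. tropicalis, and neither passed. rnf219, a partner of the CCR4-NOT deadenylase, rnf14, which clears stalled translation factors, and the Tudor protein rnf17, needed for sperm formation in mouse, gave 0.18 ± 0.15, -0.23 ± 0.16 and -0.42 ± 0.17 in X. laevis and 0.16 ± 0.08, -0.02 ± 0.32 and 0.13 ± 0.13 in X. tropicalis, none of which passed. The RIG-I ligase trim25 had 3.64, 3.71, 5.77 and 5.49 CPM in animal libraries and 3.86, 2.80, 2.77 and 5.66 CPM in vegetal ones of X. laevis, which did not pass (adjusted p = 0.264), and was too low to test in X. tropicalis.

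F-box receptors outside these sets supplied 3 of the 4 animal mRNAs of X. laevis that passed with at least 2-fold. fbxo34 (model Xetrov72013095), described in mouse oocytes as a factor of meiotic progression, had 292, 308, 305 and 306 CPM in animal libraries and 135, 105, 147 and 155 CPM in vegetal libraries. In X. tropicalis it had 211 and 197 CPM and 118 and 134 CPM. Animal libraries were above vegetal ones without overlap in both species, by a log2 difference of -1.18 ± 0.11 (adjusted p = 0.000186) and -0.68 ± 0.07 (adjusted p = 1.42e-18).

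fbxo25 (model Xetrov72001356), a relative of atrogin-1, had 39.0, 41.3, 33.1 and 35.0 CPM in animal libraries and 16, 12.7, 13.8 and 16.6 CPM in vegetal ones of X. laevis, the largest animal difference of the family there at -1.33 ± 0.12 (adjusted p = 0.000169). In X. tropicalis both hemispheres were alike, at 90.5 and 92.2 CPM and 93.4 and 102 CPM, with a log2 difference of 0.10 ± 0.07 (adjusted p = 0.288). The species difference was 1.43 ± 0.18 (adjusted p = 0.00179). The third, fbxo3 (model Xetrov72009751), had 50.4, 49.2, 45.2 and 52.9 CPM in animal libraries and 19.2, 17.5, 28.9 and 22.5 CPM in vegetal ones of X. laevis, a log2 difference of -1.19 ± 0.15 (adjusted p = 0.000826). It was also animal in X. tropicalis at -0.39 ± 0.14 (adjusted p = 0.0214), which became 0.26 without the animal library of female 2.

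In X. tropicalis fbxw9 and fbxo15 had the largest shifts of their subfamilies. fbxw9 (model Xetrov72035803), a WD-repeat receptor, had 30.3 and 24.2 CPM in animal libraries and 11.1 and 8.18 CPM in vegetal libraries, a log2 difference of -1.52 ± 0.13 (adjusted p = 4.08e-22). In X. laevis the values overlapped at 9.77, 7.30, 8.72 and 8.22 and 10.4, 10.6, 10.9 and 8.33 CPM, with 0.24 ± 0.12 (adjusted p = 0.17), and the species differed by -1.75 ± 0.20 (adjusted p = 0.00103). fbxo15 (model Xetrov72034074), a marker of mouse embryonic stem cells, was vegetal with 14.4 and 11.3 CPM in animal libraries and 42.8 and 42.2 CPM in vegetal libraries, a log2 difference of 1.77 ± 0.11 (adjusted p = 8.73e-34). Its X. laevis vegetal libraries varied widely, at 53.3, 31.5, 14 and 32.1 CPM against 18.5, 18.3, 16.9 and 15.0 CPM in animal libraries, and the difference of 0.80 ± 0.26 did not pass (adjusted p = 0.0511).

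Smaller F-box shifts were seen in each species. fbxo36 was animal in both, at -0.88 ± 0.14 (adjusted p = 0.00317) in X. laevis and -0.76 ± 0.09 (adjusted p = 9.34e-13) in X. tropicalis, and so was fbxo45, a partner of the ligase mycbp2 in neurons, at -0.46 ± 0.09 (adjusted p = 0.0086, and 0.0567 without A_t2) and -0.20 ± 0.06 (adjusted p = 0.0082). fbxo4 was vegetal in X. laevis at 0.60 ± 0.12 (adjusted p = 0.00896), as was fbxw8, the receptor of cul7 complexes, at 0.54 ± 0.15 (adjusted p = 0.03, and 0.11 without A_t2). In X. tropicalis fbxl20 was vegetal at 0.62 ± 0.16 (adjusted p = 0.00107) and turned to -0.23 without the vegetal library of female 2. The glycoprotein receptor fbxo27 was vegetal there at 0.41 ± 0.11 (adjusted p = 0.00175). fbxl17, which removes faulty BTB protein dimers, was animal at -0.52 ± 0.09 (adjusted p = 1.03e-07), and fbxo41, known from neurons in mouse, at -1.28 ± 0.34 (adjusted p = 0.00136). The level of fbxo41 was low, at 3.88 and 1.95 CPM in animal libraries and 1.70 and 0.757 CPM in vegetal libraries. Its call was lost with DESeq2.

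Some F-box receptors were named for a high mean CPM, a rank by counts and not per length. fbxo42 had 300.4, 297, 260.3 and 262 CPM in animal libraries and 304, 425, 426 and 294 CPM in vegetal ones of X. laevis, a log2 difference of 0.35 ± 0.12 that did not pass (adjusted p = 0.0623). The iron-sensing receptor fbxl5 gave -0.05 ± 0.07 in X. laevis and -0.13 ± 0.07 in X. tropicalis, and fbxw4 gave -0.07 ± 0.10 and -0.21 ± 0.11, none of which passed.

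TRIM mRNAs outside these sets were shifted by less than 2-fold. In X. laevis the vegetal TRIM mRNAs were trim14, an adaptor of antiviral signalling in mammals, trim67 and trim8. trim14 had 3.98, 4.91, 3.65 and 3.15 CPM in animal libraries and 7.72, 9.03, 5.42 and 6.85 CPM in vegetal libraries, with no overlap and a log2 difference of 0.89 ± 0.13 (adjusted p = 0.00209), against 0.03 ± 0.09 in X. tropicalis (adjusted p = 0.852). trim67, known from neurons, was low, at 1.51, 1.05, 0.285 and 0.525 and 2.36, 3.03, 0.614 and 0.717 CPM, and gave 0.94 ± 0.24 (adjusted p = 0.0223, and 0.141 without A_t2). trim8, a regulator of cytokine signalling, was vegetal at 0.60 ± 0.11 (adjusted p = 0.00606) in X. laevis and 0.23 ± 0.10 (adjusted p = 0.0499) in X. tropicalis, where it became -0.09 without the animal library of female 1 and -0.06 without the vegetal library of female 2.

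Animal TRIM mRNAs included trim3, a brain ligase that binds kinesin in mammals, with -0.45 ± 0.09 in X. laevis (adjusted p = 0.00883, and 0.0611 without A_t2) and 0.07 ± 0.16 in X. tropicalis. trim69.1 was animal in both species, at -0.43 ± 0.10 (adjusted p = 0.0182, and 0.0796 without A_t2) and -0.46 ± 0.12 (adjusted p = 0.000869), although reads of trim69.1 and trim69.2 may be shared. trim32, a ligase of muscle in mammals, was low and animal in X. tropicalis at -0.78 ± 0.32 (adjusted p = 0.0449). trim2, a neurofilament ligase in mouse, was vegetal there at 0.22 ± 0.08 (adjusted p = 0.0241).

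Among the RNF genes outside these sets, 2 more were animal in X. laevis by about 2-fold. rnf157, a neuronal ligase in mouse, had 161, 144, 154 and 151 CPM in animal libraries and 69.5, 66.4, 99.1 and 78.2 CPM in vegetal libraries, with no overlap and a log2 difference of -0.98 ± 0.11 (adjusted p = 0.000461). In X. tropicalis it had 94.9 and 69.7 and 95.6 and 74.6 CPM, with a log2 difference of 0.06 ± 0.07 (adjusted p = 0.58). rnf24 was low, at 2.98, 1.82, 6.38 and 5.01 CPM in animal libraries and 0.824, 1.16, 2.32 and 3.17 CPM in vegetal libraries, which overlapped between the females, and gave -1.13 ± 0.22 (adjusted p = 0.0089).

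In X. tropicalis rnf216 (model Xetrov72004668), the RBR ligase TRIAD3, was animal with 121 and 123 CPM against 49.8 and 52.0 CPM, a log2 difference of -1.26 ± 0.07 (adjusted p = 1.17e-36). In X. laevis the same direction was smaller, at 78.3, 81.3, 71.6 and 78.8 and 55.5, 60.3, 64.3 and 62.5 CPM, with -0.35 ± 0.09 (adjusted p = 0.0217, and 0.0743 to 0.142 without A_t1, A_t2 or B_t2). rnf180 was vegetal in X. tropicalis at 21.3 and 19.7 and 38.5 and 42.3 CPM, 1.00 ± 0.10 on the log2 scale (adjusted p = 7.79e-17), just inside 2-fold, and gave -0.14 ± 0.10 in X. laevis (adjusted p = 0.319). rnf112.1 was vegetal in X. laevis at 0.47 ± 0.10 (adjusted p = 0.0117, and 0.0799 without A_t2) and gave -0.30 ± 0.17 in X. tropicalis, with reads that may be shared among the rnf112 copies. rnf144b was animal in X. tropicalis at -0.66 ± 0.18 (adjusted p = 0.00225), a direction that became 0.18 without the animal library of female 1.

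The naming rule takes the strongest calls first, so the 70 members it does not cover hold few calls by construction, and these are named here after their values were seen. In X. laevis 54 of the 70 were tested. rnf126, a quality control ligase, was vegetal at 0.39 ± 0.09 (adjusted p = 0.0208), and so was rnf217 at 0.40 ± 0.08 (adjusted p = 0.0118), while rnf115 was animal at -0.46 ± 0.10 (adjusted p = 0.0126), as was rnf149. The 50 without a call lay between -1.03 and 0.56 on the log2 scale. In X. tropicalis 49 of the 70 were tested, with rnf114 vegetal at 0.23 ± 0.08 (adjusted p = 0.0134). The linear ubiquitin ligase rnf31 was animal there at -0.26 ± 0.08 (adjusted p = 0.00381), rnf214 at -0.22 ± 0.08 (adjusted p = 0.0217) and fbxo9 at -0.16 ± 0.06 (adjusted p = 0.0394), beside rnf149. The 44 without a call lay between -0.63 and 0.28.

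Across the 119 genes tested in both species, 34 were called in X. laevis and 41 in X. tropicalis. Of these, 16 were called in the same direction in both, 47.1% of the X. laevis and 39.0% of the X. tropicalis calls. That is 13.4% of the 119, against a background of 12.7% of all models tested in both. The 7 shared vegetal genes included rnf41, rnf103, rnf111, rnf13, rnf11 and trim8, and the 9 shared animal genes included fbxo34, fbxo3, fbxo36, fbxo45, rnf139, rnf149, rnf216 and trim69.1. fbxl19 alone was called in opposite directions (background 2.13%), and 61 were called in neither species. DESeq2, with the pairing kept, ended the X. tropicalis calls of rnf111, trim8, fbxo3, fbxo45, trim69.1 and fbxl19. As a description, the log2 differences of the 2 species correlated over the 119 genes with a Pearson r of 0.552 and a Spearman rho of 0.380, and over all 11688 models with 0.506 and 0.340. Genes are not independent replicates, and both species were counted on the same X. tropicalis gene models.

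**Figure D3:**
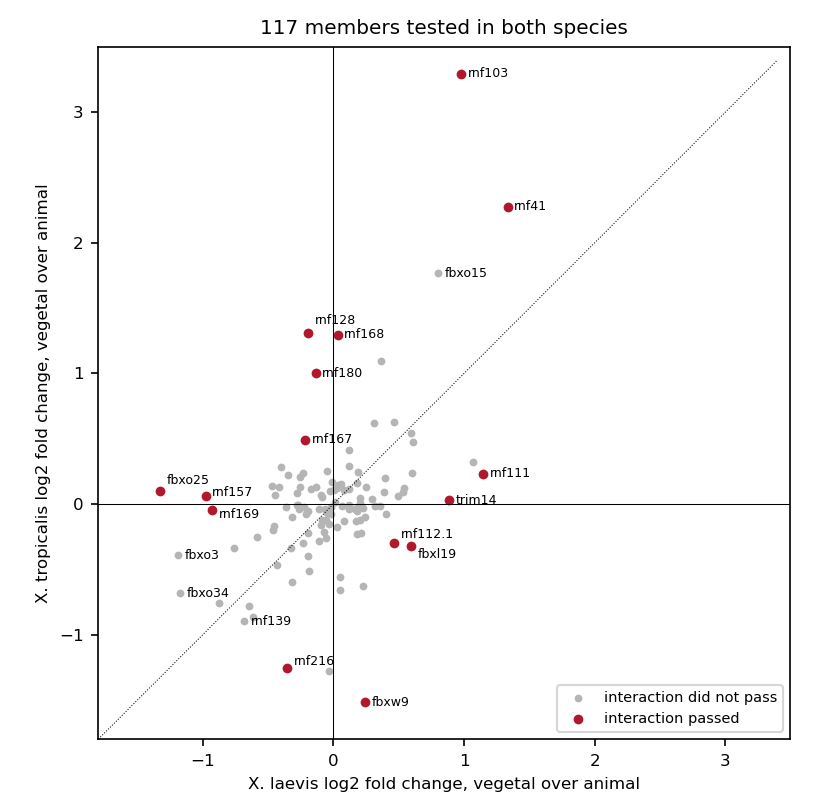
Log2 fold change between hemispheres in X. tropicalis (y axis) against X. laevis (x axis), vegetal over animal, for 117 genes tested in both species; red points passed the species interaction of edgeR, the dotted line marks equal values. Red points include rnf103 far above the line, fbxo25, rnf157 and rnf169 on the left near a y value of 0, and rnf111 and trim14 on the right near it.

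The species interaction, which tests the difference between the 2 hemisphere differences, passed for 16 of the 119 genes (13.4%), against a background of 12.5%. In 9 of them the X. tropicalis difference was the more vegetal one (background 5.77%) and in 7 the X. laevis one (background 6.70%). Besides rnf103, rnf41, fbxo25 and rnf168, the first kind held rnf128 at 1.51 ± 0.20 (adjusted p = 0.00204), rnf180 at 1.12 ± 0.16 (adjusted p = 0.00267), rnf157 at 1.04 ± 0.17 (adjusted p = 0.005), rnf169 at 0.88 ± 0.14 (adjusted p = 0.00403) and rnf167 at 0.74 ± 0.19 (adjusted p = 0.0391). Besides fbxw9, fbxl19 and rnf111, the second kind included rnf216 at -0.90 ± 0.14 (adjusted p = 0.00356), trim14 at -0.84 ± 0.19 (adjusted p = 0.0202) and rnf112.1 at -0.76 ± 0.19 (adjusted p = 0.031). Leaving out X. laevis batch A_t2 ended the calls of rnf167 (adjusted p = 0.112), trim14 (0.0617) and rnf112.1 (0.0849), and leaving out B_t2 ended them as well (0.0767, 0.0506 and 0.0577). Without A_t1 the call of rnf167 was lost too (0.0529). With no replicate block the calls of fbxl19 (adjusted p = 0.354) and rnf168 (0.0769) were lost, as were those of rnf167, trim14 and rnf112.1. The model gives both species 1 spread per gene, while separate fits gave a common coefficient of variation of 0.132 (X. laevis) and 0.0468 (X. tropicalis).

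The X. laevis genome is allotetraploid, and many genes kept an L and an S copy, which were counted here on 1 X. tropicalis model. In the X. laevis v10.1 gene table, 91 of the 154 members had both copies, 31 only L, 20 only S and 12 no entry under their symbol. X. laevis calls were made for 23 of 81 tested genes with both copies, 9 of 27 with L only, 4 of 17 with S only and 0 of 9 without an entry, beside 27.7% of all tested models, where no test of these counts was run. Which copy carried a hemisphere difference was not analysed here.

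Levels also differed between females, which was described without a test since each species had 1 animal against 1. In X. laevis 10 of 134 genes (7.46%, against 7.59% of all tested models) had separate ranges in the 2 females and means at least 2-fold apart after 0.5 CPM was added to each mean, which lowers the ratio of scarce mRNAs. In X. tropicalis this held for 10 of 126 (7.94%, against 6.68%). The APC/C inhibitor fbxo5 averaged 46.8 CPM over the 4 libraries of X. laevis female A and 100.3 CPM over those of female B. fbxw7 went the other way, at 28.2 CPM in female A and 12.5 CPM in female B, and fbxw8 had 8.11 and 22.7 CPM. In X. tropicalis trim33 stood at 20.9 CPM in female 1 and 63.3 CPM in female 2, and fbxl19 at 51.4 and 22.5 CPM. fbxo47 had 12.8 and 3.45 CPM in the 2 X. tropicalis females and no count in X. laevis. fbxo2 had 60 and 31 counts in the animal and vegetal libraries of X. tropicalis female 1 (4.96 and 4.06 CPM) and 0 counts in both libraries of female 2. By unscaled totals these 0 counts allow up to 0.106 and 0.138 CPM.

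**Figure D4:**
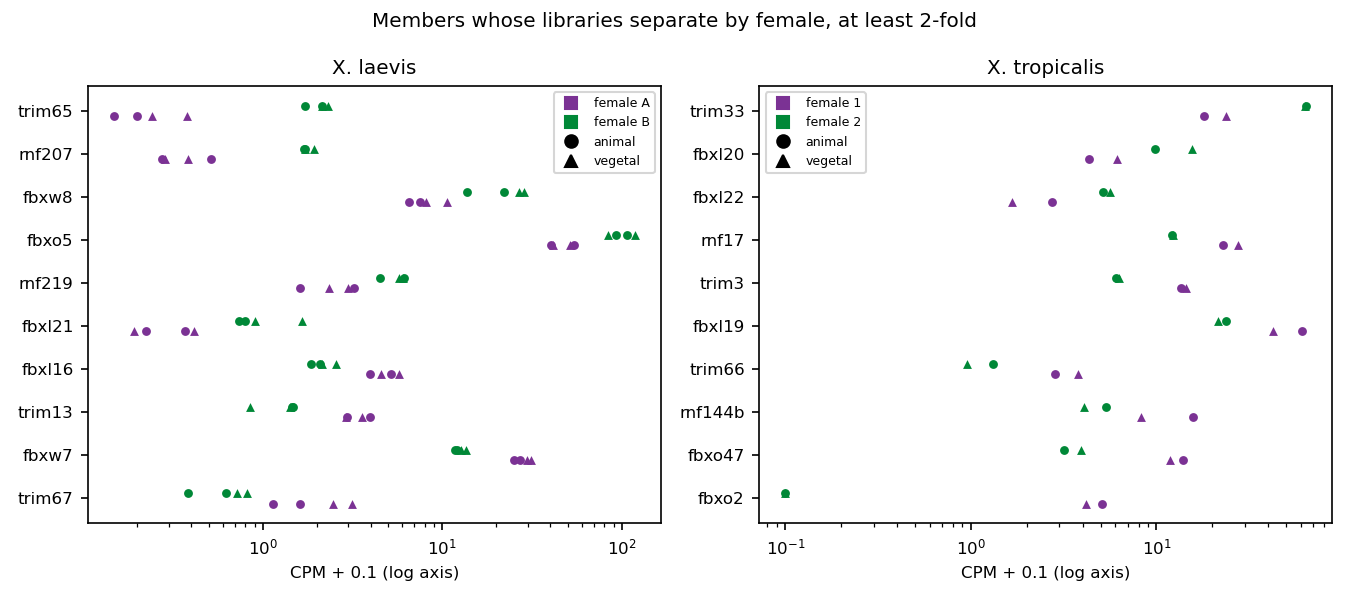
Level of each ligase mRNA whose libraries separate by female with means at least 2-fold apart after 0.5 CPM was added to each mean (x axis, CPM + 0.1 on a log axis; y axis, 10 genes per species); colours mark the female, circles animal and triangles vegetal libraries. For each gene the libraries of one female lie on one side of those of the other, as for trim33 of X. tropicalis (20.9 against 63.3 CPM), while circles and triangles of a female lie close together for most genes.

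Whether the hemisphere difference itself depended on the X. laevis female was tested as an interaction over the 8 X. laevis libraries. It passed for 0 of 134 members with edgeR (background 0.00%) and 0 with DESeq2 (background 0.0276%), and 0 members had an unadjusted p under 0.05, against 1.75% of all models. With 2 batches per female this test had 2 residual degrees of freedom per gene, so the 0 does not show that the females were alike.

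The partners of these ligases were read from lists of general knowledge. Of 35 tested E1 and E2 enzymes, 6 were vegetal and 6 animal in X. laevis, and 10 and 7 of 35 in X. tropicalis. The shares called were 34.3 and 48.6%, beside backgrounds of 27.7 and 33.0%. The E2 genes ube2z (1.46 ± 0.09 and 1.75 ± 0.07, log2 in X. laevis and X. tropicalis), ube2l3 (1.42 ± 0.10 and 1.76 ± 0.08), which serves RBR ligases, and ube2d1 (1.28 ± 0.11 and 0.70 ± 0.07), which serves many RING ligases, were vegetal in both species. The main E1, uba1 (-0.41 ± 0.08 and -0.99 ± 0.07), and the hybrid E2 and E3 enzyme ube2o (-0.55 ± 0.07 and -1.09 ± 0.06) were animal in both.

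Of the cullin-RING core and its regulators, 3 were vegetal and 5 animal of 30 in X. laevis, and 5 and 6 of 31 in X. tropicalis. The shares called were 26.7 and 35.5%, beside the same backgrounds. The list also held F-box genes whose symbols fall outside the rule, btrc, skp2 and ccnf. btrc, the receptor beta-TrCP for beta-catenin and Emi1, was vegetal in both species (2.40 ± 0.12 and 1.40 ± 0.06). skp2, the receptor for the cell cycle inhibitor p27, was vegetal in X. tropicalis (1.99 ± 0.07) and gave 0.34 ± 0.15 in X. laevis, which did not pass. ccnf, which encodes cyclin F, passed in neither species (0.02 ± 0.11 and 0.06 ± 0.06). The scaffold subunits of the SCF complex were shifted little: cul1 was vegetal in X. tropicalis (0.15 ± 0.06) and skp1 animal (-0.19 ± 0.06), and neither passed in X. laevis (0.23 ± 0.07 and -0.19 ± 0.08). Of the adaptors of other cullins, ddb1 was animal in both (-0.35 ± 0.08 and -0.69 ± 0.06), and the scaffold cul4b was animal in X. laevis (-1.06 ± 0.14) and vegetal in X. tropicalis (0.19 ± 0.06).

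Of 13 APC/C genes, 1 was vegetal and 2 animal in X. laevis and 2 and 4 in X. tropicalis, with anapc10 vegetal (0.67 ± 0.08 and 0.45 ± 0.06) and cdc27 animal (-0.72 ± 0.08 and -0.77 ± 0.06) in both. Of the HECT ligases, 8 were animal and 1 vegetal of 22 in X. laevis (backgrounds 14.4 and 13.2%) and 9 and 2 of 21 in X. tropicalis (backgrounds 17.3 and 15.6%), with no test of the direction. They included huwe1 (-0.87 ± 0.07 and -0.60 ± 0.07), trip12 (-0.51 ± 0.07 and -0.27 ± 0.07) and herc2 (-0.37 ± 0.07 and -0.48 ± 0.09), animal in both species, and smurf2, which was vegetal in X. laevis (0.51 ± 0.08) and animal in X. tropicalis (-0.94 ± 0.13). nedd4 was vegetal in X. tropicalis (1.24 ± 0.11) and did not pass in X. laevis (-0.31 ± 0.15). Ubiquitin genes and deubiquitinases had 3 vegetal and 1 animal call of 14 in X. laevis and 4 and 1 of 14 in X. tropicalis, all under 2-fold. The shares called were 23.1 and 46.2% for APC/C genes, 40.9 and 52.4% for HECT ligases and 28.6 and 35.7% for the ubiquitin list. These shares stand beside the same backgrounds of 27.7 and 33.0%, and no list was tested as a set.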

How the data were processed

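Per the labels' protocols, oocyte hemispheres were separated by hand and frozen, and RNA from a proteinase K and phenol-chloroform extraction went into standard Illumina libraries. The values deposited by the authors are unnormalized read counts, 1 file per library, over 28165 gene models. Per the submitters' processing notes the tools were Bowtie2 2.1.0, edgeR and DESeq, with no version for the last pair. For genome build, counting program and strand setting: not given in the sources used here. Values of overlapping, antisense or near-identical genes are therefore uncertain, and X. laevis L and S copies share 1 model.

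Groups were species and hemisphere from the labels. Counts were tested per species with edgeR 4.0.16 (R 4.3.3): filterByExpr, TMM, quasi-likelihood F test, Benjamini-Hochberg over all models tested (14517 in X. laevis, 12916 in X. tropicalis), passed at an adjusted p under 0.05. Per the labels an animal and a vegetal library share a batch (X. laevis) or female (X. tropicalis), and this was the replicate block. Within such pairs, deviations from the group means had correlations of 0.648 to 0.843 (X. laevis) and 0.829 (X. tropicalis). Residual degrees of freedom per gene were 3 and 1, and prior degrees of freedom 4.79 and 162, so X. tropicalis p-values rest almost wholly on the spread pooled over genes. Standard errors were derived from F. The species interaction used 11688 models, 6 blocks and TMM per species, and the female interaction 4 blocks. Levels are CPM with TMM-scaled library sizes. No libraries were copies (chi-square per degree of freedom at least 12.1). Where oocytes of a batch came from is known only by female, so p-values in X. laevis measure the spread between 4 pairs from 2 females. Alternatives were DESeq2 1.42.0, other scalings and filters, no replicate block, batches summed per female, and each batch or library left out. The species interaction was refitted without X. laevis batches only, and the female interaction with none left out. The fits were also run on simulated counts with the same spread for all genes of a species and no batch or female effect. Such counts cannot test whether pooling the spread over genes holds in X. tropicalis. The X. laevis v10.1 gene table was used for L and S entries alone, and figures were drawn with matplotlib 3.10.9.

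Members named with values are those that passed with at least 2-fold, the 3 with the lowest adjusted p per species, subfamily and direction, the species differences that passed, those with the highest mean CPM of each subfamily, and 5 role sets. Some members that this rule names are not reported here, though they stay in the counts over the family. Members, role sets and partner lists were chosen with earlier results of these data known.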

Additional observations from a re-analysis of the deposited data

Results flagged for a closer look

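Of 164 groups of 4 X. laevis libraries of the members named by the rule, 6 had 1 library far from the other 3, and chance flags about 1 in 20 groups. Most concern levels near 0 or small distances. fbxl19 had 200.9 CPM in the vegetal library of A_t2 and 159.6 to 164.9 CPM in the other vegetal libraries. fbxo34 had 292 CPM in the animal library of A_t1 against 305 to 308 CPM in the other 3. rnf128 had 19.1 CPM in the vegetal library of B_t2 against 15.2 to 15.6 CPM. rnf14 had 2.04 CPM in the vegetal library of B_t1 against 2.79 to 2.89 CPM. fbxo2 had 0.0279 CPM in the vegetal library of B_t1 and 0 in the other 3, and fbxo24 had 0 in the animal library of B_t1 and 0.0219 to 0.0249 CPM in the other 3.

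Hemisphere differences that differed between the species by the interaction test included those of rnf103 (2.33, X. tropicalis minus X. laevis on the log2 scale), rnf128 (1.51), fbxo25 (1.43), rnf168 (1.25), rnf180 (1.12), rnf157 (1.04), rnf41 (0.92), rnf169 (0.88), rnf167 (0.74), fbxw9 (-1.75), fbxl19 (-0.92), rnf111 (-0.91), rnf216 (-0.90), trim14 (-0.84) and rnf112.1 (-0.76).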

How the results depend on the processing

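With no replicate block, 11 X. laevis members were vegetal in place of 19, 6 and 1 X. tropicalis members were vegetal and animal in place of 20 and 21, and 10 in place of 16 passed the species interaction. DESeq2 gave 12 and 8 X. tropicalis calls. Summing the X. laevis batches per female gave 33 vegetal and 27 animal calls, in a fit with only 2 pairs. Leaving out 1 batch gave 11 to 21 vegetal and 10 to 20 animal calls in X. laevis, and leaving out 1 library gave 3 to 8 and 0 to 3 in X. tropicalis, with no pairing. Scaling by library totals gave 16 vegetal and 26 animal calls in X. tropicalis. The cause of these changes was not tested. Leaving out or summing also gives fewer samples. All other alternatives left these counts within 1.5 times, and the female interaction passed for 0 members in each.

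Of the called members named by the rule, 15 of 30 in X. laevis, 2 of 34 in X. tropicalis and 10 of 15 species interactions passed in the same direction under every alternative run. For the species interaction only X. laevis batches were left out, so its dependence on single X. tropicalis libraries or females was not tested. The X. laevis ones were fbxl19, fbxo25, fbxo3, fbxo34, rnf103, rnf11, rnf111, rnf13, rnf139, rnf157, rnf169, rnf41, rnf44, trim14 and trim71. In X. tropicalis DESeq2 ended the calls of fbxl19, fbxl20, fbxo27, fbxo3, fbxo41, fbxo45, rnf111, rnf144b, rnf2, rnf220.1, rnf8, trim2, trim32, trim37, trim69.1 and trim8. Scaling by library totals ended the calls of fbxl15 (X. laevis) and of rnf8, trim2 and trim8 (X. tropicalis), the size factors of DESeq2 in edgeR that of fbxl4 (X. laevis), and another filter or none those of rnf220.1, trim2 and trim8 (X. tropicalis). Among called members named by the rule, directions turned in X. tropicalis with 1 library left out, where the log2 difference ranged from -0.95 to 0.42 for fbxl19, -0.23 to 1.38 for fbxl20, -0.78 to 0.26 for fbxo3, -1.38 to 0.18 for rnf144b, -0.77 to 0.24 for rnf2, -0.034 to 0.59 for trim37 and -0.094 to 0.71 for trim8. The uncalled fbxo2 ranged from -8.61 to 8.13 there, and the sign of other uncalled members also turned in either species. The 20 X. laevis and 28 X. tropicalis members that were not tested had too few counts, and absent mRNA and limited depth cannot be told apart there. X. laevis reads were counted on X. tropicalis gene models. A low or absent X. laevis count can thus also come from reads that these models did not take up, which cannot be told apart either.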
